A study of Arabidopsis thaliana with 6 samples.

Results

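The untreated Arabidopsis thaliana line amiR-ETP1/2 was compared with wild-type Col-0 plants exposed to ethylene gas. Members were chosen by array title: the 2 arrays of amiR-ETP1/2 and the 2 arrays of ethylene-treated Col-0, which are 4 of the 6 arrays of the study. The other 2 arrays, of Col-0 in air, give a reference level for both groups. Which differences are due to the gas and which to the line was not tested. amiR-ETP1/2 expresses an artificial microRNA aimed at ETP1 and ETP2 in the Col-0 background, and its labels give neither a promoter, nor the number of independent lines, nor a gas treatment. The ethylene group is Col-0 with 10 ppm ethylene, and the air group is Col-0 in hydrocarbon-free air. All plants are described as 3 weeks old, no organ is named, and the sample characteristics state an exposure of 4 h while the array titles state 24 h.

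Ethylene is a gaseous plant hormone that controls growth, stress responses, ripening and leaf senescence. Its receptors hold the pathway off in air, and on binding the gas they release EIN2, a membrane protein that passes the signal to the transcription factor EIN3 and its relatives. ETP1 and ETP2 are F-box proteins, the parts of ubiquitin ligases that select a protein for breakdown, and the title of the study ties them to the breakdown of EIN2. The comparison therefore addresses how near an untreated plant with the artificial microRNA comes to a plant that has received the gas.

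Of 22746 probe sets, 8731 were called between amiR-ETP1/2 and ethylene at an adjusted p under 0.05 (38.4%), 4143 higher (18.2%) and 4588 lower (20.2%) in amiR-ETP1/2. A size of at least 1 log2 unit was reached by 2519 of the higher (11.1%) and 2628 of the lower probe sets (11.6%). A size of at least 4 log2 units was reached by 139 higher (0.611%) and 157 lower probe sets (0.690%). In 16139 probe sets (71.0%) both arrays of one group lay beyond both of the other. For comparison, 8185 probe sets (36.0%) were called between ethylene and air and 141 (0.620%) between amiR-ETP1/2 and air. These comparisons share arrays, so their counts are not independent. Array medians were 4.39 to 4.46. Over probe sets, Pearson's r was 0.792 to 0.801 between amiR-ETP1/2 and ethylene arrays and 0.975 to 0.981 between amiR-ETP1/2 and air arrays, as a description of arrays that share all their probes. The actin control at its middle position had log2 levels of 8.80 and 8.92 in amiR-ETP1/2, 6.72 and 7.03 with ethylene and 9.47 and 8.91 in air. The GAPDH control at its 5' end had 9.65 and 9.36 in amiR-ETP1/2, 7.35 and 7.01 with ethylene and 9.18 and 8.30 in air. The 3' actin control had 9.69 and 9.81 in amiR-ETP1/2, 8.89 and 9.05 with ethylene and 9.79 and 9.75 in air, and the 3' GAPDH control 10.17 and 10.02 in amiR-ETP1/2, 8.37 and 8.76 with ethylene and 9.95 and 10.05 in air. The 5' actin control went the other way, with 4.91 and 4.61 in amiR-ETP1/2, 5.49 and 5.53 with ethylene and 5.76 and 5.07 in air. Of these 5 controls, 4 were thus higher and 1 lower in both amiR-ETP1/2 arrays than in both ethylene arrays. The 2 rRNA controls, at low levels, were also lower in both amiR-ETP1/2 arrays. The 5S control had 3.56 and 3.43 in amiR-ETP1/2 and 3.97 and 4.01 with ethylene. The 25S control had 3.38 and 3.45 in amiR-ETP1/2 and 3.61 and 3.48 with ethylene. The part of the controls in the results was not tested. In RNA of bulk tissue, fewer cells of a type and less RNA per cell cannot be told apart.

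The artificial microRNA's target ETP2 (AT3G18910, chromosome 3) was examined first. Its log2 levels were 4.23 and 4.47 in amiR-ETP1/2, 4.29 and 4.42 with ethylene and 4.06 and 4.14 in air. The groups of amiR-ETP1/2 and ethylene overlapped, and the difference was -0.00 (SE 0.14, adjusted p = 0.997), with a 95% interval of -0.32 to 0.32. Against air the ETP2 difference was 0.25 (95% interval -0.07 to 0.57, adjusted p = 0.45), with both amiR-ETP1/2 arrays above both air arrays. The ETP2 signal lies near the array medians and shows no lower level in the line. No probe set was named for ETP1 or EIN2, which were not analysed here. The knockdown named by the label is therefore not seen in the ETP2 signal and could not be checked for ETP1.

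Genes of the ethylene pathway were lower in the line than in gas-treated plants. EIN3 (AT3G20770), the transcription factor that carries the response in the nucleus, had log2 levels of 7.97 and 8.04 in amiR-ETP1/2, 10.13 and 10.26 with ethylene and 8.16 and 7.62 in air. Both amiR-ETP1/2 arrays lay below both ethylene arrays and within the range of the air arrays, with a difference from ethylene of -2.19 (SE 0.19, adjusted p = 7.5e-05). RTE1, which promotes the activity of the receptor ETR1, had levels of 4.18 and 4.60 in amiR-ETP1/2, 6.77 and 7.03 with ethylene and 5.13 and 4.89 in air. ARL (AT2G44080), an ARGOS-type gene of organ growth, had 4.26 and 4.36 in amiR-ETP1/2, 9.81 and 10.03 with ethylene and 3.80 and 3.90 in air. Of the 4 measured genes of ethylene perception and signalling, these 3 were lower and ETP2 was not called, beside 19.0% of all named genes called lower. AT1G12010, an ACC oxidase that makes ethylene, was also lower by 1.45 log2 units (SE 0.15, adjusted p = 0.00018). PDF1.2, a defensin and classical marker of combined ethylene and jasmonate signalling, had levels of 3.88 and 3.86 in amiR-ETP1/2 and 4.46 and 4.10 with ethylene (difference -0.41, adjusted p = 0.07), and was called lower without ethylene array 2 (adjusted p = 0.037) and with limma's trend and robust options (adjusted p = 0.041).

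The largest rises of the line over ethylene were, except for AT5G26270, in genes with a higher level in air than with the gas. For AT5G26270 the air and ethylene arrays overlapped. GSTU20 (AT1G78370), a tau-class glutathione transferase, had log2 levels of 11.66 and 11.25 in amiR-ETP1/2, 4.36 and 4.09 with ethylene and 11.38 and 11.66 in air. BCAT4 (AT3G19710), which starts the conversion of methionine to glucosinolates, had 11.07 and 11.17 in amiR-ETP1/2, 4.33 and 4.25 with ethylene and 11.38 and 11.29 in air. Their differences of 7.23 and 6.83 correspond to 150-fold and 114-fold higher deposited values. AT5G03350, of the legume lectin type, was 64.5-fold higher, the chloroplast cryoprotective gene COR15A (AT2G42540) 50.7-fold and AT4G23670, of the major latex protein type, 42.6-fold. LrgB (AT1G32080), the plastid glycolate and glycerate transporter of photorespiration, was 33.0-fold higher. The other named rises were AT3G53980 and AT5G05960, both of the lipid transfer type, the defensin-like gene AT2G43550, the GDSL lipase AT1G29660, the isoflavone reductase-like AT1G75280, AT4G30660, AT1G13650, AT3G28270 and AT5G26270. The SE ran from 0.12 to 0.53, the highest for AT3G53980, whose amiR-ETP1/2 arrays had 8.95 and 10.91, and the adjusted p was at most 9.9e-05. Ethylene levels near 4 lie close to the array medians, so such folds are ratios of deposited values and not of transcript numbers.

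**Figure D1:**
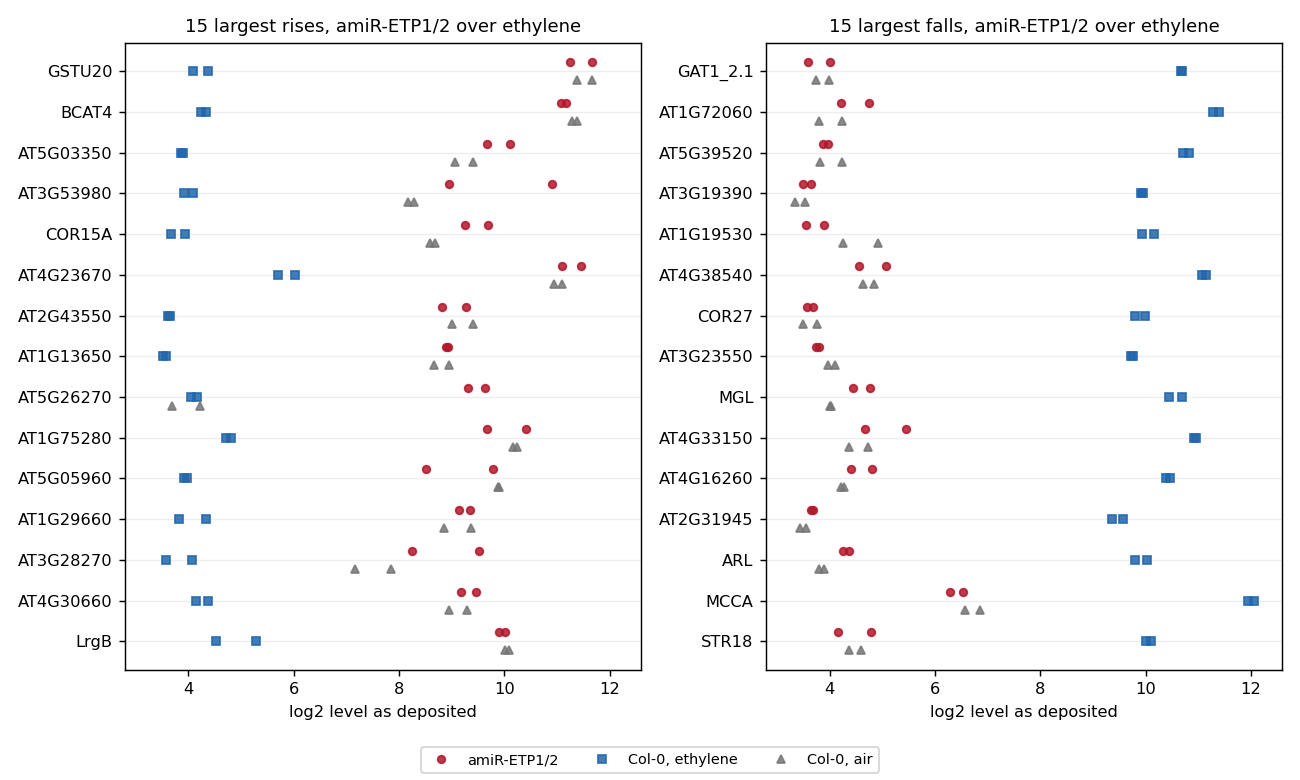
Log2 levels of the 15 genes with the largest rise (left panel) and the 15 with the largest fall (right panel) of amiR-ETP1/2 over ethylene, with 1 point for each of the 2 arrays of amiR-ETP1/2 (circles), ethylene (squares) and air (triangles). Except for AT5G26270, the amiR-ETP1/2 points lie nearer the air points than the ethylene points.

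The largest falls were in genes that are high with the gas and, except for MCCA, had air levels between 3.35 and 4.92. MCCA had 6.28 and 6.54 in amiR-ETP1/2, 11.95 and 12.06 with ethylene and 6.86 and 6.57 in air. GAT1_2.1 (AT1G15040), of the class I glutamine amidotransferase type, had log2 levels of 3.60 and 4.01 in amiR-ETP1/2, 10.69 and 10.67 with ethylene and 3.74 and 3.99 in air. The difference of -6.88 (SE 0.17) corresponds to a 118-fold lower value in the line. Both amiR-ETP1/2 levels of GAT1_2.1 lie below the medians of those arrays, 4.39 and 4.44. The fold is thus a ratio of deposited values and not of transcript numbers. AT1G72060 and AT5G39520 followed with differences of -6.85 and -6.84. MGL (AT1G64660), the methionine gamma-lyase, differed by -5.97, AT4G33150, the enzyme that starts lysine breakdown, by -5.87, and MCCA (AT1G03090), a subunit of methylcrotonyl-CoA carboxylase in leucine breakdown, by -5.59. COR27, a cold-regulated gene of clock output, differed by -6.27, the granulin-type cysteine protease AT3G19390 by -6.37 and the glucanase-type AT4G16260 by -5.82. The remaining named falls were AT1G19530, the monooxygenase-type AT4G38540, the MATE efflux gene AT3G23550, AT2G31945, ARL and the sulfurtransferase STR18. Their adjusted p was at most 3.5e-06. Against air, 0 of the 15 falls and 1 of the 15 rises were called, and the exception is AT5G26270. In limma without adjustment, the 95% intervals of amiR-ETP1/2 minus air left out 0 for AT1G19530, MGL and ARL among the falls. Among the rises besides AT5G26270 they left out 0 for AT5G03350, AT3G53980, COR15A and AT3G28270, all with the line above air.

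Across the gene lists, 452 different genes were measured, of which 178 were higher and 112 lower in amiR-ETP1/2 and 162 were not called. A gene counted as measured only with a probe set named for it alone, so lists of set genes were covered in part. Measured were 2 of 19 genes listed for glucosinolate synthesis, 3 of 20 starvation markers and 3 of 18 clock genes. For the Calvin cycle 4 of 21 were measured, for ethylene signalling 4 of 18, for photosystems and electron transport 12 of 67. For cytosolic ribosomal proteins it was 100 of 172. Over all 13350 named genes, 15.5% were called higher and 19.0% lower, with a median difference of -0.04, and each count below is to be read beside these shares. List medians depended in part on the processing. Without the 40% of probe sets of lowest level, 17 of 42 shifted and 25 were counted as the same. Without amiR-ETP1/2 array 1, 9 of the 42 shifted, and without array 2 also 9. Against air, 18 of the 452 genes were called, beside 141 of all 22746 probe sets (0.620%). The lists were chosen with earlier results of these data known.

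**Figure D2:**
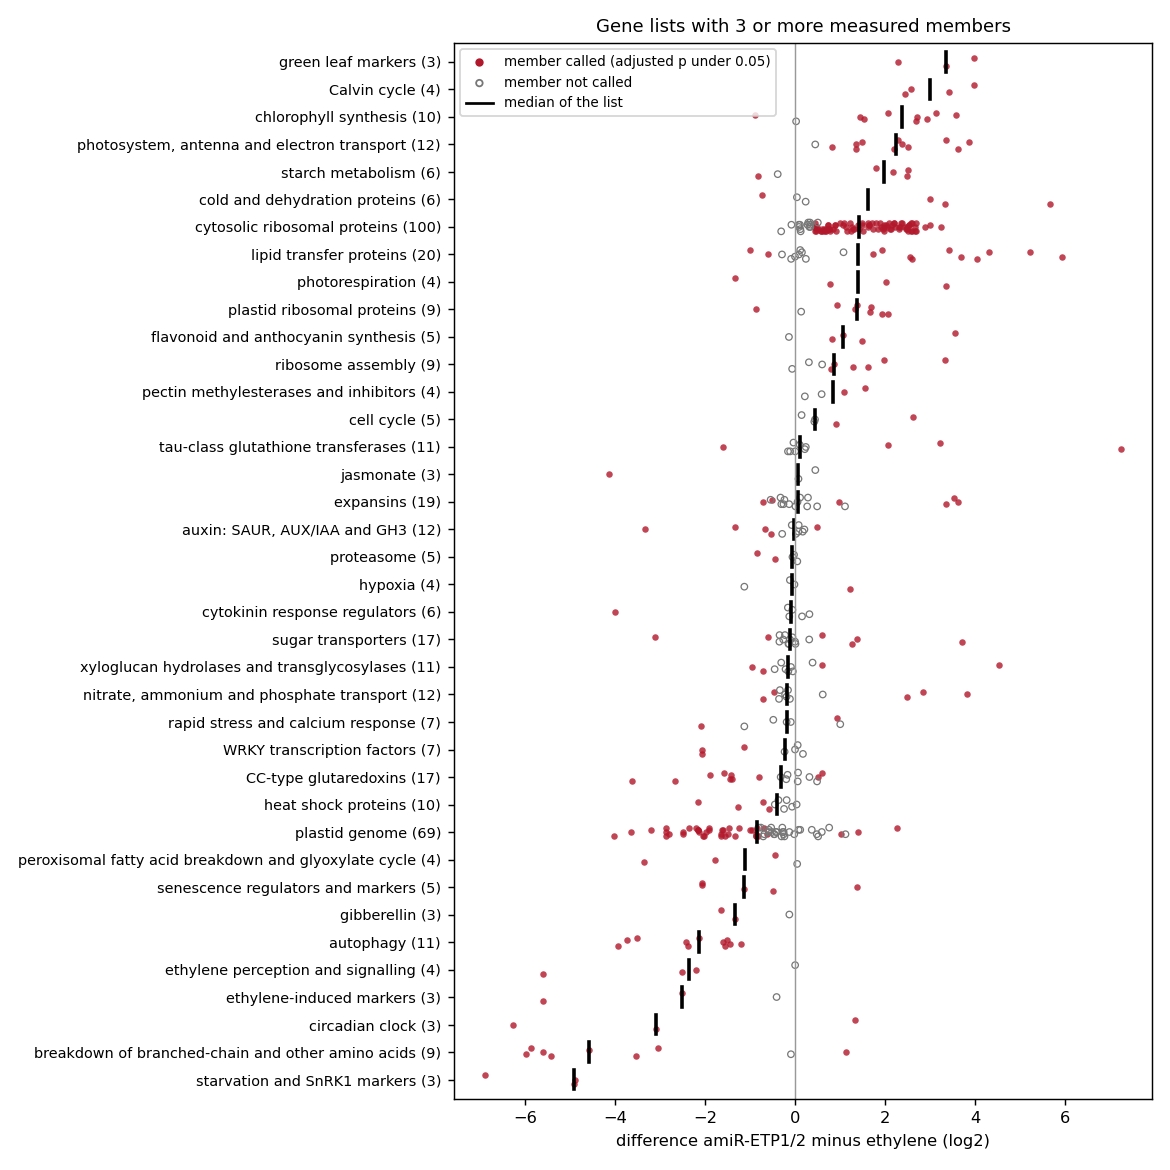
Differences amiR-ETP1/2 minus ethylene (log2) of single genes (points) in the lists with 3 or more measured members, with the number measured in parentheses and the median as a black bar. Filled points passed the test and open points did not, and the medians run from -4.91 for starvation markers to 3.35 for green leaf markers.

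Nuclear genes of photosynthesis were higher in the line than in gas-treated plants, at levels near those in air. Of 12 measured genes of the photosystems, antennae and electron transport, 11 were higher and none lower, with a median difference of 2.24. NdhL and NdhN, subunits of the chloroplast NADH dehydrogenase-like complex, were higher by 3.86 (SE 0.14) and 3.61 (SE 0.16). LHCB4.2, an antenna protein of photosystem II, had log2 levels of 12.06 and 12.30 in amiR-ETP1/2, 8.81 and 8.85 with ethylene and 12.34 and 12.05 in air. PSBY of photosystem II and PSAE-1 of photosystem I were higher by 2.37 and 2.29. NdhS had a difference of 0.45 and was not called (adjusted p = 0.06), but passed without amiR-ETP1/2 array 1 (0.61, adjusted p = 0.033), after median centring (adjusted p = 0.042) and with the trend and robust options (adjusted p = 0.038). LHCB4.3, chosen after its values were seen, was intermediate, with 7.06 and 7.24 in amiR-ETP1/2, 4.70 and 4.58 with ethylene and 8.14 and 8.46 in air. It was higher than with ethylene by 2.51 (SE 0.15) and lower than in air by 1.14 (adjusted p = 0.033).

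All 4 measured Calvin cycle genes were higher, with a median of 2.99. RCA, the activase of Rubisco, had log2 levels of 13.08 and 13.17 in amiR-ETP1/2, 9.12 and 9.16 with ethylene and 13.31 and 13.21 in air. SBPASE, of the regeneration phase, was higher by 3.42, PRK, which makes the acceptor of carbon dioxide, by 2.56 and the phosphoglycerate kinase AT1G56190 by 2.44. In chlorophyll synthesis 8 of 10 genes were higher and 1 lower, with a median of 2.37. PORB, a light-dependent protochlorophyllide reductase, was higher by 3.57 (SE 0.17), the geranylgeranyl reductase AT1G74470 by 2.68, HEME2 by 2.93 and the magnesium chelatase gene CHLI2 by 2.72. HEMA2, an isoform of the entry enzyme, was lower by 0.89 (adjusted p = 0.00066) and was chosen after its values were seen. In photorespiration 3 of 4 genes were higher, led by AT1G11860 (3.34), the T-protein of glycine decarboxylase, and the glycerate kinase AT1G80380 was lower by 1.33. The 3 measured green leaf markers, RCA, LHCB4.2 and PSAE-1, belong to these groups, so leaf content and these pathways are read from the same genes.

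Translation genes formed the largest group. Of 100 measured cytosolic ribosomal protein genes, 86 were higher and none lower, with a median of 1.41 and a range of -0.31 to 3.23. The list medians were 9.91 and 9.74 in amiR-ETP1/2, 8.26 and 8.21 with ethylene and 9.54 and 9.72 in air, so both amiR-ETP1/2 arrays lay above both ethylene arrays. AT5G60670 was higher by 3.23 (SE 0.18), AT3G04840 by 2.87 (SE 0.16), AT5G16130 by 2.68 (SE 0.12) and AT3G60245 by 2.67 (SE 0.13). Of 9 plastid ribosomal protein genes 7 were higher, led by AT4G01310 (2.06), and AT5G24490 was lower by 0.87. Of 9 ribosome assembly genes 6 were higher, led by AT4G12600 (3.33) and AT2G40360 (1.97). Near-identical copies of ribosomal protein genes can share probes, so single copies are less certain than the group count.

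The plastid genome ran opposite to the nuclear photosynthesis genes. Of 69 measured plastid genes 38 were lower and 3 higher in amiR-ETP1/2 than with ethylene, with a median of -0.86. The list medians were 6.44 and 5.80 in amiR-ETP1/2, 7.23 and 7.46 with ethylene and 6.46 and 6.01 in air. petL, a small subunit of the cytochrome b6f complex, had 5.45 and 5.69 in amiR-ETP1/2 and 9.57 and 9.62 with ethylene. petN of the same complex was lower by 2.86, the dehydrogenase-like subunit ndhE by 3.20 and psbA, the D1 protein of photosystem II, by 2.87. atpB of the ATP synthase was among the 3 higher genes, at 2.27, and was chosen after its values were seen. Plastid transcripts are mostly not polyadenylated, and no source used here says how they were primed in the labelling.

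Genes of recycling and of carbon and nitrogen shortage were lower in the line. All 11 measured autophagy genes were lower, with a median of -2.13. ATG8H, one of the ubiquitin-like proteins that coat the autophagosome, had log2 levels of 5.07 and 5.27 in amiR-ETP1/2, 9.23 and 8.99 with ethylene and 5.01 and 5.12 in air. ATG8B differed by -3.74, ATG8E by -3.51, APG8A by -2.38 and ATG3, an enzyme of ATG8 conjugation chosen after its values were seen, by -1.44. Of 9 genes of amino acid breakdown 7 were lower and 1 higher, with a median of -4.58. IVD, the isovaleryl-CoA dehydrogenase, had 5.36 and 5.93 in amiR-ETP1/2, 11.10 and 11.05 with ethylene and 5.78 and 5.37 in air. ETFQO, which passes its electrons to respiration, differed by -4.58, ALDH6B2 by -3.54 and MCCB by -3.04, and these 3 were chosen after their values were seen. AT4G31810 was the 1 higher member (1.13).

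All 3 measured starvation markers were lower: GAT1_2.1, AKINBETA1, which belongs to the SnRK1 kinase that senses low energy, by 4.91 (SE 0.18) and the ubiquitin ligase ATL8 by 4.89 (SE 0.14). AKINBETA1 had levels of 5.52 and 5.64 in amiR-ETP1/2, 10.46 and 10.53 with ethylene and 6.96 and 6.44 in air. SDP1, the lipase that mobilises stored oil, was lower by 3.36 and AT3G15290, of the 3-hydroxyacyl-CoA dehydrogenase type, by 1.78, among 3 of 4 genes of peroxisomal fatty acid breakdown. In the senescence list 4 of 5 genes were lower. WRKY22, WRKY6 and WRKY53, transcription factors of leaf senescence and defence, differed by -2.08, -2.07 and -1.14. Of 7 measured WRKY genes these 3 were lower and 4 were not called, with a median of -0.24. SAG29, a sugar transporter of old leaves also known as SWEET15, was higher by 1.38 (adjusted p = 0.0092), with 5.86 and 6.91 in amiR-ETP1/2, 4.88 and 5.12 with ethylene and 4.91 and 4.94 in air. Without ethylene array 1 or 2 the SAG29 call was lost (adjusted p = 0.081 and 0.051), and without ethylene array 2 so was that of WRKY53 (adjusted p = 0.076). The senescence members did not all point one way, and SAG29 differed from ethylene without a difference between ethylene and air beyond 1 log2 unit.

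Secondary metabolism, starch and cell wall lists held large single differences. Of 19 listed genes of glucosinolate synthesis only 2 were measured, BCAT4 and the glucosyltransferase UGT74B1 (1.54), and both were higher. Of 5 measured flavonoid genes, among 14 listed, 4 were higher. DFR, a reductase of anthocyanin synthesis, had log2 levels of 7.18 and 8.15 in amiR-ETP1/2, 4.08 and 4.15 with ethylene and 5.87 and 5.34 in air. It was higher than with ethylene by 3.55 (SE 0.31, adjusted p = 9.1e-05) and also higher than in air by 2.06 (adjusted p = 0.048). In starch metabolism 4 of 6 genes were higher, among them SBE2.2 (2.49), a branching enzyme, and APL3 (2.17), a subunit of ADP-glucose pyrophosphorylase, and AMY1 was lower by 0.83. Of 11 tau-class glutathione transferases 3 were higher, GSTU20, GSTU18 (3.22) and GSTU27 (2.07), GSTU16 was lower by 1.60 and 7 were not called. The list median was 0.10, and 2.64 without the 40% of probe sets of lowest level.

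Of 19 expansins, which loosen cell walls, 4 were higher, 2 lower and 13 not called, with a median of 0.05. The largest differences were those of EXPA4 (3.61), EXPB3 (3.54) and EXPA8 (3.36). XTH32, a xyloglucan-modifying enzyme, was higher by 4.53 among 2 higher and 2 lower of 11 members, whose median was -0.15. Of 20 genes of the lipid transfer type 10 were higher and 2 lower, with a median of 1.40, and of 2.56 without the 40% of probe sets of lowest level. Of 17 sugar transporters 4 were higher, 2 lower and 11 not called, with a median of -0.12. The vacuolar SWEET17 was higher by 3.71 and SWEET2 lower by 3.12. Among 12 nitrate, ammonium and phosphate transporters 3 were higher, AT3G21670 (3.81), the glucosinolate transporter GTR1 (2.84) and AT1G68570 (2.47). Of the others 2 were lower and 7 not called, and the list median was -0.18.

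The stress, hormone and clock lists together held members called in both directions. Of 6 cold and dehydration genes 3 were higher, COR15A (5.66), the dehydrin LTI30 (3.32) and COR15B (2.99), and COR47 was lower by 0.74, a call lost without amiR-ETP1/2 array 1 (adjusted p = 0.082) and without ethylene array 1 or 2 (adjusted p = 0.13 and 0.12). LTI30 had levels of 7.53 and 7.61 in amiR-ETP1/2, 4.28 and 4.22 with ethylene and 5.65 and 4.86 in air, so the line lay above both Col-0 groups. Of 17 CC-type glutaredoxins, small redox proteins of which some are tied to nitrogen signalling, 8 were lower and 2 higher, with a median of -0.32. Against air, 4 of the 17 were lower and 0 higher in amiR-ETP1/2, with a median of -0.51, beside 0.620% of all probe sets called. With ethylene against air, 7 were higher and 3 lower. AT3G62950 had 4.40 and 4.59 in amiR-ETP1/2, 8.20 and 8.06 with ethylene and 7.12 and 6.35 in air, and AT4G15700 was lower by 2.67. WES1, which conjugates auxin to amino acids, was lower by 3.33 among 4 lower and 1 higher of 12 auxin genes, whose median was -0.03. The cytokinin response regulator RR16 was lower by 4.00, the gibberellin receptor GID1B by 1.65, the jasmonate-responsive JRG21 by 4.12 and the chaperone Hsp70-2 by 2.17. Called counts were 1 of 6 for cytokinin regulators, 2 of 3 for gibberellin, 1 of 3 for jasmonate and 4 of 10 for heat shock, all lower. Of 3 measured clock genes 2 were lower, COR27 and AT4G33980 (-3.10), and 1 was higher, with a list median of -3.10. The higher one, GI, which acts in the clock and in flowering, differed by 1.32, a call lost without ethylene array 1 (adjusted p = 0.062), and PRL, a replication licensing gene of the MCM type, was higher by 2.61 among 2 of 5 cell cycle genes.

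Few markers of other organs were measured. The root genes EXPA18 and EXPA7 differed by -0.33 and 0.11 and were not called (adjusted p = 0.16 and 0.88). The pollen gene AT5G45880 and the guard cell gene FMA differed by -0.42 and -0.32 and were not called, and none of the listed seed genes was measured. The summed level of a marker list was not used, since log2 levels of different probe sets do not add.

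Ethylene-responsive genes that the line matched were few. A probe set was taken as ethylene-responsive when called between ethylene and air with at least 1 log2 unit. It was taken as matched when amiR-ETP1/2 differed from air by at least 1 log2 unit in the same direction and the 95% interval of amiR-ETP1/2 minus ethylene lay within 1 log2 unit of 0. Of 4879 ethylene-responsive probe sets, 2533 higher (11.1%) and 2346 lower (10.3%) with ethylene, 21 were matched (0.430%), 11 in the higher and 10 in the lower direction. Of these 21, 13 carried a gene name. Called between amiR-ETP1/2 and air were 13 of the 21, and 10 of the 13 with a name. The named matches not called against air were CHI (adjusted p = 0.077), AT3G46450 (adjusted p = 0.063) and AT2G32160 (adjusted p = 0.12). Both differences from air contain the same air arrays, so a match is a description of levels, with no test. The count depended on single arrays, with 46 without air array 1, 35 without air array 2, 52 without amiR-ETP1/2 array 2, 13 without ethylene array 1 and 11 without ethylene array 2.

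STZ (AT1G27730), a zinc-finger repressor of rapid stress responses, had the largest matched difference. Its log2 levels were 8.31 and 7.23 in amiR-ETP1/2, 8.00 and 7.92 with ethylene and 3.80 and 4.22 in air. The amiR-ETP1/2 arrays lay on both sides of the ethylene arrays, and the difference was -0.19 with a 95% interval of -0.97 to 0.59. Without amiR-ETP1/2 array 1 the difference was -0.73 and was called (adjusted p = 0.032). AT1G32920 had 8.70 and 7.94 in amiR-ETP1/2, 8.76 and 8.73 with ethylene and 5.98 and 6.20 in air, and without amiR-ETP1/2 array 1 it was lower than ethylene by 0.80 (adjusted p = 0.0090). The chitinase-type CHI (AT2G43570) had 7.17 and 6.27 in amiR-ETP1/2, 6.28 and 6.49 with ethylene and 5.34 and 5.20 in air. CHI was not called against air (adjusted p = 0.077), and without amiR-ETP1/2 array 2 it was higher than ethylene by 0.78 (adjusted p = 0.011). AT4G25260, of the pectin methylesterase inhibitor type, had 5.45 and 5.35 in amiR-ETP1/2, 5.15 and 5.25 with ethylene and 4.15 and 4.00 in air. The other named matches in the higher direction were AT4G02720 and the SEC14-like AT3G46450, with differences from ethylene of 0.25 and -0.06.

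**Figure D3:**
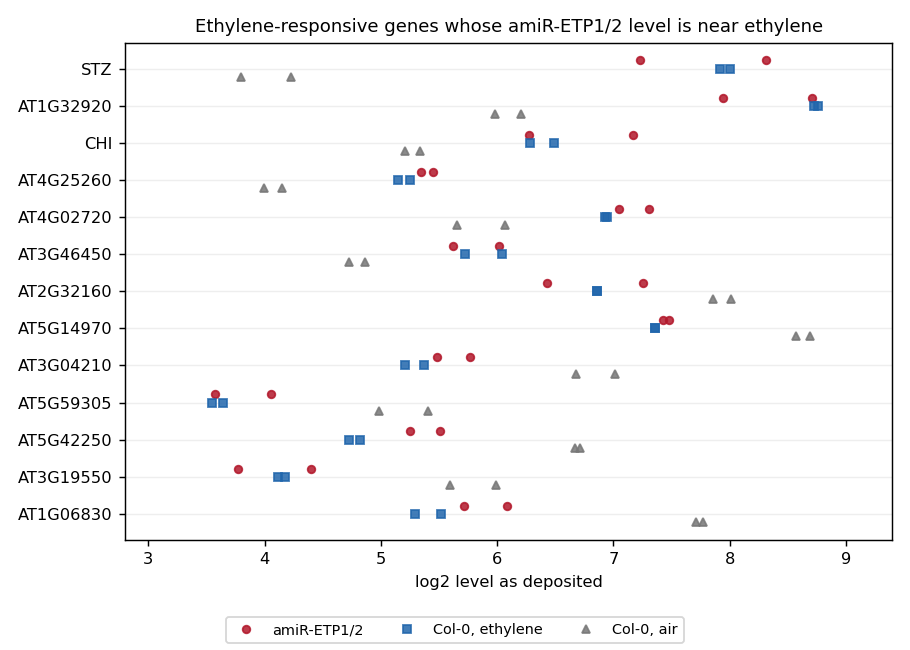
Log2 levels of the 13 named ethylene-responsive genes whose level in amiR-ETP1/2 (circles, 2 arrays) was within 1 log2 unit of that with ethylene (squares, 2 arrays), beside air (triangles, 2 arrays). In each row circles and squares lie on the same side of the triangles, above them in the upper 6 rows and below them in the lower 7.

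In the lower direction AT1G06830, a CC-type glutaredoxin, had 6.09 and 5.72 in amiR-ETP1/2, 5.51 and 5.29 with ethylene and 7.71 and 7.77 in air. Its difference from ethylene of 0.50 was itself called (adjusted p = 0.047), although this call was lost in 9 alternatives, among them the fit without amiR-ETP1/2 array 1 (0.31, adjusted p = 0.23) and those without either ethylene or either air array. A called difference from ethylene also stood for AT5G42250, of the alcohol dehydrogenase type, with 5.25 and 5.51 in amiR-ETP1/2, 4.82 and 4.73 with ethylene and 6.71 and 6.67 in air (difference from ethylene 0.61, adjusted p = 0.0098). It was not called without amiR-ETP1/2 array 2 (adjusted p = 0.054) or without ethylene array 2 (adjusted p = 0.073). AT3G19550 had 3.77 and 4.40 in amiR-ETP1/2, 4.11 and 4.17 with ethylene and 5.60 and 5.99 in air. AT3G04210, of the TIR-type resistance family, AT5G59305, AT5G14970 and AT2G32160 completed the group, with differences from ethylene of -0.02 to 0.33. Just inside the limit, the far end of the interval was 0.97 for CHI and 0.99 for AT1G32920, and just outside it was 1.03 for AT1G72940 and 1.04 for AT5G44020.

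The rapid stress list, which holds STZ, shows how far single members reached. AT4G27280, a calcium-binding EF-hand gene, had 9.48 and 9.21 in amiR-ETP1/2, 8.52 and 8.33 with ethylene and 5.04 and 5.21 in air. It moved in the direction of ethylene and beyond it, by 0.92 (SE 0.15, adjusted p = 0.0021), and so is not a match. AT1G66090 was lower than with ethylene by 2.09, and the other 5 of 7 members were not called. The calmodulin-like CML38 had 6.13 and 4.03 in amiR-ETP1/2, 6.18 and 6.24 with ethylene and 3.45 and 3.98 in air, so that 1 amiR-ETP1/2 array was near ethylene and the other near air, and without array 1 it was called lower (-2.18). In CML38, as in STZ, amiR-ETP1/2 array 1 had the higher level. The list medians were 6.13 and 4.03 in amiR-ETP1/2, 6.03 and 6.24 with ethylene and 3.80 and 3.98 in air. By the list median, amiR-ETP1/2 array 1 was thus near ethylene and array 2 near air. A member that was not called is therefore not shown to be at the ethylene level.

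A further 172 probe sets, 110 higher and 62 lower in amiR-ETP1/2, separated the line from ethylene by at least 1 log2 unit although ethylene and air differed by less than 1 log2 unit at a 95% interval. The limit is one of size, and 74 of the 172 were themselves called between ethylene and air. They are 1.97% of the 8731 called, and 95 of them carried a gene name. AT5G26270 (chromosome 5) had log2 levels of 9.30 and 9.63 in amiR-ETP1/2, 4.17 and 4.06 with ethylene and 3.69 and 4.23 in air, a difference from ethylene of 5.35 (SE 0.20). AT2G37870, of the lipid transfer type, had 7.76 and 8.36 in amiR-ETP1/2, 3.83 and 4.21 with ethylene and 4.19 and 4.37 in air. QQS (AT3G30720), an orphan gene that affects starch and protein content, had 9.27 and 9.36 in amiR-ETP1/2, 6.80 and 6.81 with ethylene and 6.41 and 6.30 in air. For these 3 genes both amiR-ETP1/2 arrays lay above all 4 Col-0 arrays.

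The next rises were AT1G67360 (1.71), a lipid droplet protein, AT4G29200 (1.61), the GDSL lipase AT2G04570 (1.59), ZW9 (1.57) and AT4G27652 (1.49). The falls were led by AT2G16660 (-1.62), AT5G27280 (-1.51), AT5G59080 (-1.46), the CC-type glutaredoxins AT3G62930 (-1.42) and AT5G18600 (-1.40), AT2G30930 (-1.29), the plastid gene rbcL (-1.26) and AT1G03400 (-1.25). The calls of AT4G27652 and AT5G59080 were lost without ethylene array 1 (adjusted p = 0.083 each), and those of AT5G59080 and AT2G16660 without ethylene array 2 (adjusted p = 0.054 and 0.052). rbcL, the large subunit of Rubisco, had 4.81 and 4.38 in amiR-ETP1/2, 5.88 and 5.82 with ethylene and 6.15 and 6.01 in air. Of the 95 named genes 18 were also called between amiR-ETP1/2 and air. The count of 172 was 307 without amiR-ETP1/2 array 1, 311 without array 2, 91 without ethylene array 1 and 94 without ethylene array 2.

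**Figure D4:**
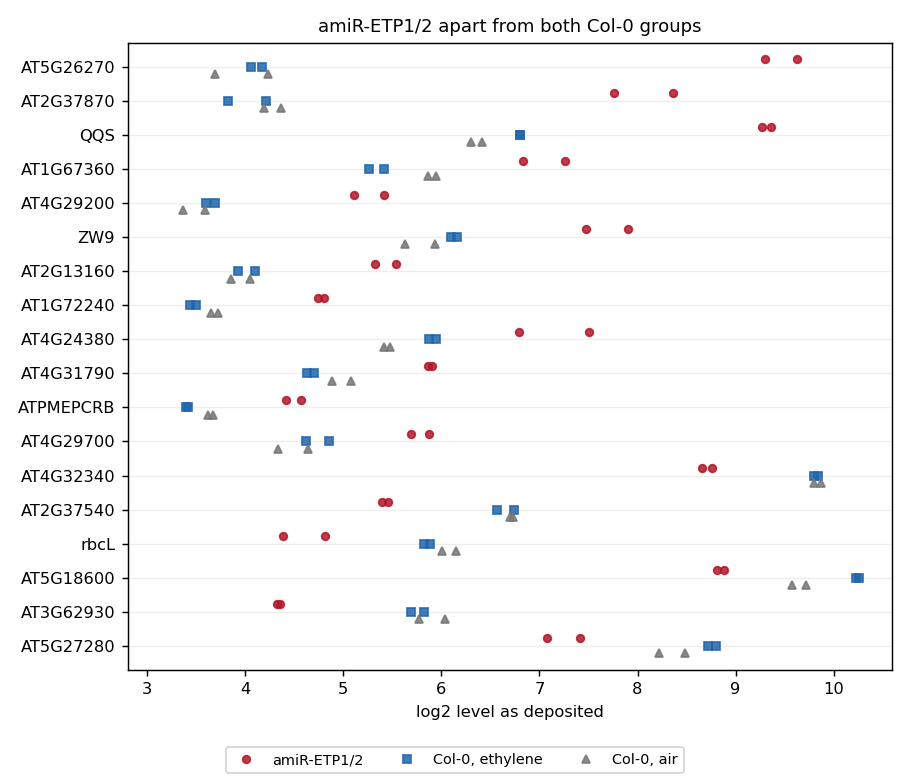
Log2 levels of 18 of the named genes without an ethylene difference from air beyond 1 log2 unit. In amiR-ETP1/2 these 18 differed from ethylene by at least 1 log2 unit and were also called against air. There is 1 point for each of the 2 arrays of amiR-ETP1/2 (circles), ethylene (squares) and air (triangles). The circles lie above both Col-0 groups in the upper 12 rows and below them in the lower 6.

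The named genes of this kind were unevenly spread over the chromosomes. Of 56 higher genes 26 (46.4%) lie on chromosome 4, which holds 14.6% of the named nuclear genes. Of 38 lower nuclear genes 17 (44.7%) lie on chromosome 5 and 10 (26.3%) on chromosome 2, which hold 22.5% and 16.4% of the named genes. Over genes with a mean log2 level above 6, the median difference of amiR-ETP1/2 from ethylene was 0.30 on chromosome 4, 0.19 on chromosome 3, 0.06 on chromosome 1, -0.09 on chromosome 2 and -0.18 on chromosome 5. The median difference from air was 0.35 on chromosome 4, with 0.24 and 0.44 for the single amiR-ETP1/2 arrays, 0.11 on chromosome 3, 0.03 on chromosome 1, -0.25 on chromosome 5, with -0.32 and -0.14, and -0.23 on chromosome 2, with -0.39 and -0.04, so that on chromosome 2 only 1 of the 2 arrays was clearly lower. Ethylene minus air had chromosome medians of -0.07 to 0.04. The shift thus moves with the amiR-ETP1/2 arrays, and its part in the single genes above was not tested.

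**Figure D5:**
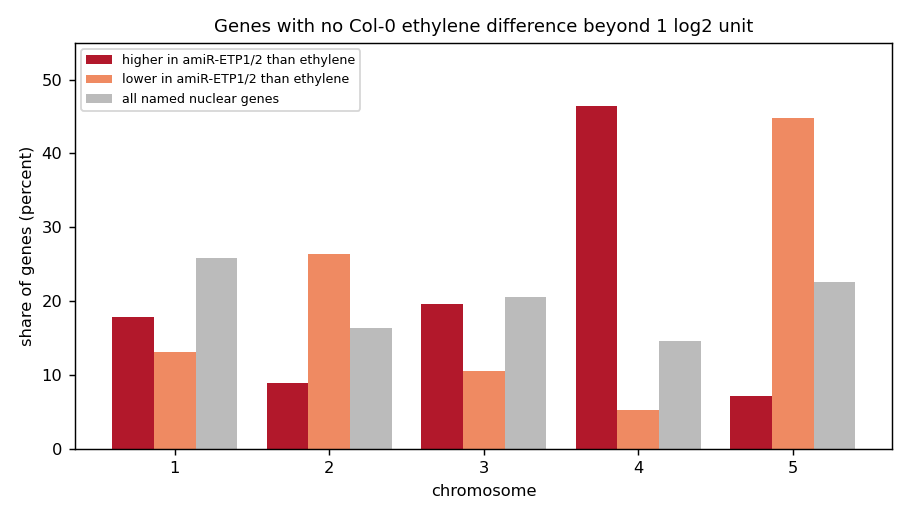
Share (percent) of named nuclear genes on each of the 5 chromosomes, for the 56 genes higher (dark bars) and the 38 lower (light bars) in amiR-ETP1/2 without an ethylene difference beyond 1 log2 unit, and for all named nuclear genes (grey bars). Chromosome 4 holds 46.4% of the higher genes and chromosome 5 holds 44.7% of the lower genes.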

How the data were processed

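Total RNA was hybridised to Affymetrix ATH1 arrays, on which several short probes form a probe set. The deposited values are 1 log2 level per probe set and array. The log2 scale was read from their range, since the sources used here do not state it. Per the submitters' processing notes limma was used, with no version. No source used here gives the background correction or normalization, and any compression of low signals carries over.

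Of 22753 probe sets 7 controls were left out and 22746 tested in limma 3.58.1 (R 4.3.3), with 1 mean per group over all 6 arrays (3 residual and 4.15 prior degrees of freedom), two-sided, and Benjamini-Hochberg adjustment over all probe sets. The replicates are called biological by the design text, and 2 arrays per group limit the precision. SE and intervals are those of the moderated model. The script was tested on simulated data.

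The annotation gave 1 gene for 13513 probe sets and several for 503, and 13436 matched TAIR10.1 loci, used for names and chromosomes only. Each gene counts once, by its probe set with the highest mean. The comparison, its members and the 49 gene lists were chosen with earlier results of these data known. Named genes are the 15 largest rises and falls with groups apart, up to 12 matches in each direction, the 8 largest rises and falls of those without an ethylene difference beyond 1 log2 unit, ETP2, EIN3 and per list the 4 members of smallest p. Genes named outside this rule were picked with their values in view. Replicate numbers did not pair the arrays: same-numbered deviations correlated at 0.07 between amiR-ETP1/2 and ethylene, -0.17 between amiR-ETP1/2 and air and -0.14 between ethylene and air. Alternatives were another normalization, a level filter, a replicate block, the trend and robust options, only the compared arrays, other limits and leaving out each array.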

Additional observations from a re-analysis of the deposited data

How the results depend on the processing

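The count of 8731 called probe sets was 8956 after quantile normalization, 8832 after median centring, 8277 with a replicate block, 8163 with the level filter, 9245 with the trend and robust options, 8825 with the 4 compared arrays alone and 6434 to 8825 without single arrays. The 21 matches were 19 to 22 under normalization, filter, block, trend and robust options, 20 with a limit of 0.8 and 19 with 1.5 log2 units, and 11 to 52 without single arrays, of which 11 to 16 were shared with the 21. The 172 probe sets without an ethylene difference beyond 1 log2 unit were 147 with the level filter, 155 with the trend and robust options, 182 and 194 after median centring and quantile normalization, 176 with the replicate block, 68 with a limit of 0.8 log2 units and 1033 with 1.5, and 91 to 311 without single arrays. Their split was 244 higher and 63 lower without amiR-ETP1/2 array 1, 148 higher and 163 lower without array 2 and 74 higher and 71 lower without air array 2. Of 151 genes named here, 0 to 7 lost their call under a single alternative.

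Differences near 0 turned sign without passing the test. After median centring they were 0.024 for ETP2 and 0.0078 for AT2G32160, and after quantile normalization 0.018 and 0.012. Without single arrays the difference ran between -0.12 and 0.12 for ETP2, -0.43 and 0.39 for AT2G32160, -0.26 and 0.13 for AT3G46450, -0.37 and 0.26 for AT3G19550, -0.025 and 0.46 for AT5G59305, -0.11 and 0.78 for CHI, -0.73 and 0.35 for STZ, -0.72 and 0.30 for AT1G72940 and -0.43 and 0.65 for EXPA7. The cause was not tested.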
